A study of Mus musculus with 4 samples.

Results

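The genes Tex ("testis expressed"), Spata ("spermatogenesis associated") and Tssk ("testis-specific serine kinase") were named for expression or function in the testis, and their promoters were examined here for KDM5C occupancy in cells of the mouse epiblast lineage. All protein-coding genes of the GENCODE M1 annotation whose symbol is Tex, Spata or Tssk followed by a number, with at most 1 trailing letter or number, were taken, except Tex12, a gene of the synaptonemal complex. This gave 42 genes, namely 18 Tex, 18 Spata and 6 Tssk genes, of 22225 protein-coding genes on chromosomes 1 to 19, X and Y. Tex9 was annotated as 2 overlapping gene records and was counted as 1 gene. The data were 2 lists of KDM5C ChIP-Seq peaks in epiblast-like cells (EpiLCs) at day 2, 1 list from XΔTsixY cells with intact Kdm5c (WT) and 1 from XΔTsixY cells that also lacked Kdm5c (KO), each called against input DNA. Both genotypes were male lines on a C57BL/6J background by the labels, and both carry a truncated Tsix allele, Tsix being the antisense RNA that represses Xist. The study's methods differ on strain, naming another background for the mutant mice and a mixed one for the conditional Kdm5c strain. The sources differ on replicates: the study's reporting summary gives biological replicates pooled for WT and a single KO immunoprecipitate, the series description gives technical replicates of the ChIP-Seq, and a supplementary table lists replicates for KO too. The KO allele lacks the exons that encode the JmjC demethylase domain. The sources differ on whether day 2 falls at the end of EpiLC conversion or after it. With 1 list per genotype no value below has a replicate error. The study states a minimum read depth that all its ChIP-Seq samples met, but the lists themselves give no read count per sample. The labelled cell type could not be checked against marker genes, since peak lists do not measure expression.

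KDM5C removes methyl groups from di- and trimethylated lysine 4 of histone H3, marks of active promoters, and binds mostly at promoters rich in CpG dinucleotides. Many genes of the germ line are silenced in the epiblast, where promoters of intermediate CpG content gain DNA methylation as cells leave the naive state. Despite their names, Tex, Spata and Tssk genes do not form a single family. Tssk genes encode related kinases of developing spermatids. Tex and Spata genes encode mostly unrelated proteins, apart from a few related pairs such as Tex19.1 and Tex19.2. Several of these proteins act in meiosis, some in sperm and some in most cell types.

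A gene was called bound when the midpoint of a WT peak lay within 1 kb of any of its annotated transcription start sites (TSSs). Of the 42 genes, 15 were bound, or 35.7% (exact 95% interval 21.6 to 52.0%, which covers counting error only). Of the other 22182 protein-coding genes, 24.0% were bound. The bound genes were Spata1, Spata3, Spata5, Spata22, Tex9, Tex10, Tex11, Tex15, Tex19.1, Tex19.2, Tex101, Tex261, Tex264, Tssk3 and Tssk6. The 27 unbound genes were Spata2, Spata2L, Spata4, Spata6, Spata7, Spata9, Spata13, Spata16, Spata17, Spata18, Spata19, Spata20, Spata21, Spata24, Tex2, Tex13, Tex13a, Tex14, Tex16, Tex21, Tex22, Tex24, Tex28, Tssk1, Tssk2, Tssk4 and Tssk5. By name, 9 of 18 Tex, 4 of 18 Spata and 2 of 6 Tssk genes were bound.

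Because KDM5C peaks are concentrated in CpG-rich sequence, bound shares were set against other promoters of similar CpG ratio. This ratio is the observed number of CpG dinucleotides over the number that the base composition gives, taken from 500 bp before to 500 bp after the TSS, and a gene with several TSSs was represented by the one of highest ratio. The median ratio was 0.507 over the 42 genes and 0.604 over the other genes. Below a ratio of 0.2, 0 of 6 genes were bound, against 0.0968% of other genes. From 0.2 to 0.4, 1 of 6 was bound (Tex19.2), against 1.50%. From 0.4 to 0.6, 5 of 13 were bound (Spata22, Tex9, Tex19.1, Tex101 and Tssk3), or 38.5% (95% interval 13.9 to 68.4%), against 15.2%. From 0.6 to 0.8, 5 of 10 were bound (Spata3, Tex11, Tex261, Tex264 and Tssk6), or 50%, against 36.8%. At 0.8 and above, 4 of 7 were bound (Spata1, Spata5, Tex10 and Tex15), or 57.1%, against 49.5%.

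Weighted to the CpG ratios of the 42 genes, 21.9% of other genes were bound, which corresponds to 9.21 of 42 genes. The share among Tex, Spata and Tssk genes was 13.8 percentage points higher, and 9.07 points higher when a peak was counted only for the gene of nearest TSS. The counting interval of the 13.8-point difference ran from -0.368 to 30.1 points and thus included 0. By name, the CpG ratios corresponded to 3.75 of 18 Tex genes, 4.74 of 18 Spata genes and 0.716 of 6 Tssk genes, beside the 9, 4 and 2 that were bound. Neither the differences between the 3 names nor the excess over other genes was tested.

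**Figure D1:**
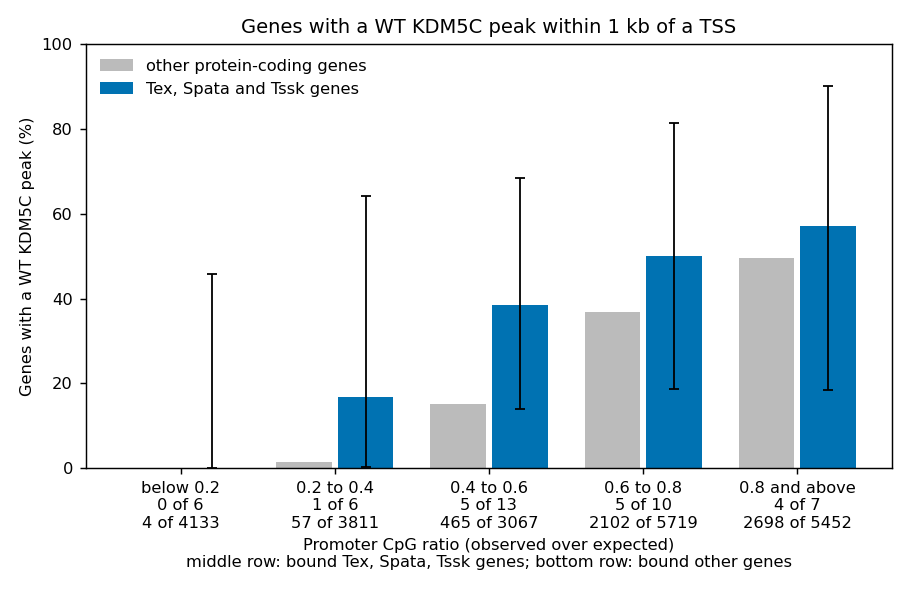
Share of genes with a WT KDM5C peak within 1 kb of a TSS (y axis, percent) in 5 bins of promoter CpG ratio (x axis), for the 42 Tex, Spata and Tssk genes and for all other protein-coding genes. Error bars are exact 95% counting intervals. In the 0.4 to 0.6 bin 38.5% of the 42-gene set stands beside 15.2% of other genes, and every interval of the 42-gene set is wide.

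The 1 kb limit fell in a gap of the distances. The farthest bound gene, Tssk6, had its peak midpoint 681 bp from the TSS. The nearest unbound gene, Spata18, which is known for mitochondrial quality control, had its closest peak midpoint 3771 bp away. Next came Tssk5 at 5115 bp, Tssk4 at 6547 bp, Spata24 at 7291 bp and Tex21 at 8703 bp. Over the 27 unbound genes the median distance was 78451 bp, and for 12 of them it exceeded 100 kb. The largest distance, 4113101 bp, was that of the X-linked Tex16.

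**Figure D2:**
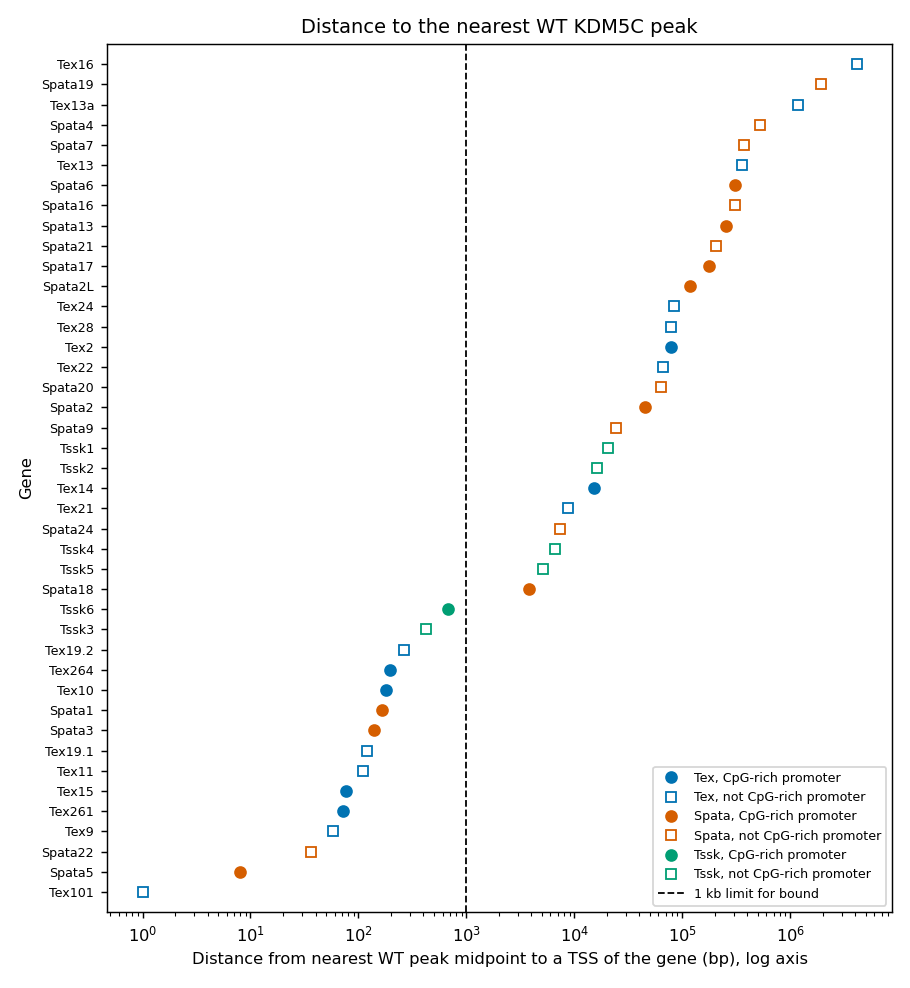
Distance from each gene's annotated TSSs to the midpoint of the nearest WT KDM5C peak (x axis, bp, log scale), for all 42 genes ordered by distance (y axis). Filled circles are CpG-rich promoters, open squares are the others, and the dashed line is the 1 kb limit. No gene lies between 681 and 3771 bp.

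Of 6 genes listed as acting in meiosis or early in the male germ line, 5 were bound (Spata22, Tex11, Tex15, Tex19.1 and Tex101, but not Tex14). Their CpG ratios corresponded to 1.68 genes. The list was written from general knowledge, with earlier results of these data known, so the choice of genes may have shaped this count. It was not a complete list of such genes. Tex genes left off it were unbound in some cases (such as Tex13 and Tex16) and bound in others (such as Tex19.2). The count therefore gives no share for meiotic or early germ-line genes as a class. The place of Tex101 on it is the least certain.

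Spata22, a partner of MEIOB in meiotic recombination (chromosome 11, 73143243 to 73169415, plus strand), carried the peak of highest score among the 42 genes. The score is 10 times the −log10 of the peak's q-value. This peak spanned 73142820 to 73143593 at a score of 859. Its fold enrichment over input was 15.7 and its q-value was 1.21e-86. It ranked 106 of 6916 WT peaks, and its summit lay 47 bp downstream of the only annotated TSS, in the first intron. The CpG ratio there was only 0.478. Of the 465 other bound genes with a ratio from 0.4 to 0.6, 99.8% had a peak of lower score.

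Tex19.1, which restrains retrotransposons in germ cells (chromosome 11, 121007457 to 121009633, plus strand), carried a peak of nearly the same rank. It spanned 121006952 to 121007719 at a score of 837 (11.7-fold over input, q-value 1.80e-84), and the CpG ratio of the promoter was 0.444. Its summit lay 194 bp upstream of the TSS. The paralogue Tex19.2, 27466 bp away on the opposite strand, was bound only by a peak of score 23 and fold enrichment 2.64 (q-value 0.00405). The summit of that peak lay 349 bp into the gene. The Tex19.2 promoter had a CpG ratio of 0.336. By exact match, 90.9% of the 50-base words around the Tex19.1 TSS and 92.3% of those around the Tex19.2 TSS occur once in the assembly.

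The stretches of mm9 at the Spata22 and Tex19.1 peaks are shown because these peaks scored highest at promoters of intermediate CpG content. That of Spata22, chr11:73143073-73143272, runs from upstream of the TSS to 30 bases into the first exon and ends before the summit. That of Tex19.1, chr11:121007163-121007362, is centred on the summit. Both read 5′ to 3′ on the plus strand, and capitals mark the letters TCCCGC, the core of sites of E2F factors, or their reverse complement.
Spata22: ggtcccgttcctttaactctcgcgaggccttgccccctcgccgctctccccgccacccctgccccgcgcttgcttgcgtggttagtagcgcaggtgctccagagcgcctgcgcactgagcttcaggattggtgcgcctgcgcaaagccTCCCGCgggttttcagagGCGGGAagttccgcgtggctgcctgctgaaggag
Tex19.1: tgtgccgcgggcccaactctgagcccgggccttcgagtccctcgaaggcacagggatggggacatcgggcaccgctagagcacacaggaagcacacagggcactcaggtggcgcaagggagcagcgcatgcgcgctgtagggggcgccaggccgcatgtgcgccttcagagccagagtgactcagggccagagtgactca
The Spata22 stretch held 19 CpG dinucleotides and 2 of these cores. The Tex19.1 stretch held 14 CpG dinucleotides and no such core.

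The other bound genes of this list had peaks close to the median of the WT list. Tex11, an X-linked gene needed for meiotic crossovers (98033987 to 98255006, minus strand), had a peak at 98254896 to 98255333 at a score of 105 (5.36-fold over input, q-value 2.52e-11). Its summit lay 91 bp upstream of the TSS. Tex11 was the only bound gene of the 5 on X, where Tex13, Tex13a, Tex16 and Tex28 were unbound. Their CpG ratios were 0.489, 0.169, 0.104 and 0.058, and below 0.2 only 0.0968% of other genes were bound. The share of other X-linked genes was not taken, so the count shows no trait of X. Tex15, which acts in meiotic recombination and retrotransposon silencing (chromosome 8, 34627210 to 34696054, plus strand), had a peak at 34627664 to 34628082 at a score of 98 (4.44-fold over input, q-value 1.57e-10). That peak lay at an internal TSS with a CpG ratio of 0.804, whereas the ratio at the gene start was 0.597. Tex101, a surface protein of germ cells, had a score of 64, below the WT median of 82. Tex14, which is required for the bridges that join germ cells, had a CpG ratio of 0.679 and its nearest peak 15088 bp away.

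The Tssk kinases of spermatids divided into 2 bound genes with strong peaks and 4 unbound ones, and neither strong peak was centred on the Tssk gene's own TSS. Tssk6 (chromosome 8, 72426083 to 72427415, plus strand) lay under a peak at 72426209 to 72427319 at a score of 667 (10.2-fold over input, q-value 1.98e-67). Its summit fell in the coding sequence of Tssk6, 883 bp downstream of the TSS. The TSS of Ndufa13, a subunit of respiratory complex I on the opposite strand, was nearer to the midpoint, at 307 bp. Tssk3 (chromosome 4, 129166258 to 129168266, minus strand) lay beside a peak at 129168084 to 129169297 at a score of 524 (7.30-fold over input, q-value 3.90e-53). Its summit was 731 bp upstream of the Tssk3 TSS, and the TSS of 1700125D06Rik, a divergent protein-coding gene, was nearer to the midpoint, at 207 bp against 425 bp for Tssk3. The CpG ratio was 0.759 at Tssk6 and 0.464 at Tssk3.

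The 4 unbound Tssk genes had lower ratios. Tssk1 (chromosome 16, 17894296 to 17895744, plus strand) had a ratio of 0.280 and Tssk2 (17898730 to 17900116 on the same strand) 0.404. These neighbours start 4434 bp apart, and their nearest peak lay 20448 and 16014 bp away. Tssk4 (chromosome 14, 56269019 to 56271376, plus strand) had a ratio of 0.208 and Tssk5 (chromosome 15, 76202388 to 76205368, minus strand) 0.289. All 50-base words around the TSSs of the 6 Tssk genes occur once in the assembly by exact match (100% at each); near-identical copies, which matter when mismatches are allowed in mapping, were not searched for.

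The summit regions of the Tssk peaks are shown because they lie away from the Tssk TSSs. That of Tssk6, chr8:72426856-72427055, is on the plus strand and covers the end of the coding sequence. That of Tssk3, chr4:129168866-129169065, is given on the minus strand and lies inside 1700125D06Rik, over its last coding exon. Capitals mark TCCCGC or its reverse complement, and CACGTG, the E-box that MAX and MGA recognise.
Tssk6: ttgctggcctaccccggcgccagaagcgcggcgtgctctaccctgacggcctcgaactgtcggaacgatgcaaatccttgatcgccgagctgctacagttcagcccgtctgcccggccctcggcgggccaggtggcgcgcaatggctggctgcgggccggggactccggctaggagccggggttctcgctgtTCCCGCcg
Tssk3: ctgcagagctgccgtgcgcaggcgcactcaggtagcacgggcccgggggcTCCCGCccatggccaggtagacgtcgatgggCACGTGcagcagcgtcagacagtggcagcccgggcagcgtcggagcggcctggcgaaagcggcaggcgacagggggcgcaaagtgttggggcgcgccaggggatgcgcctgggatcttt
The Tssk6 stretch held 24 CpG dinucleotides and the Tssk3 stretch 21, with 1 TCCCGC core in each and 1 E-box in that of Tssk3.

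A list of 8 genes known for broad expression outside the testis was also written from general knowledge and is not complete. Of these, 4 were bound (Spata5, Tex10, Tex261 and Tex264) and 4 were not (Spata2, Spata7, Spata13 and Tex2). Their CpG ratios corresponded to 3.23 genes. Tex10, a nuclear protein of ribosome biogenesis and of the pluripotency network (chromosome 4, 48443730 to 48486331, minus strand), had a peak at 48485658 to 48486415 at a score of 442 (7.83-fold over input, q-value 5.10e-45). Its summit lay 33 bp downstream of the closest TSS. Spata5, an ATPase of ribosome maturation (chromosome 3, 37318818 to 37478018, plus strand), had a peak at 37318871 to 37319735 at a score of 354 (7.04-fold over input, q-value 3.54e-36). Its midpoint lay 8 bp from a Spata5 TSS and 170 bp from the TSS of Nudt6 on the opposite strand, so the peak sat on a promoter shared by both. Tex264, a receptor for turnover of the endoplasmic reticulum, and Tex261 had weak peaks, with scores of 42 and 39. Without these 8 genes, 11 of 34 genes were bound, or 32.4% (95% interval 17.4 to 50.5%), against 17.6% of other genes of like CpG ratio. Whether expression of the 34 genes is limited to the testis was not checked.

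The remaining bound genes were Spata1, Spata3 and Tex9. Spata1 (chromosome 3, 146120167 to 146162717, minus strand) lay by a peak at 146162371 to 146163393 at a score of 110 (3.85-fold over input, q-value 8.95e-12). The nearest TSS was that of Gng5, a G-protein subunit transcribed away from Spata1, at 28 bp from the midpoint against 165 bp for Spata1. Spata3 (chromosome 1, 87913391 to 87926533, plus strand) had a peak at 87914883 to 87915374 at a score of 105 (4.22-fold over input, q-value 2.89e-11). That peak lay at an internal TSS with a CpG ratio of 0.720, and the ratio at the gene start was 0.223, so that Spata3 was unbound when only gene starts were counted. Tex9 had a score of 31 and a 2.34-fold enrichment over input, the lowest fold enrichment of the 15.

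A promoter was called CpG-rich from a ratio of 0.6 upward, provided that the GC content reached 50%. Of 16 such promoters 8 were bound, and of the other 26 promoters 7 were. The share of other genes under this definition was not taken. By ratio alone, 36.8% of other genes were bound from 0.6 to 0.8 and 49.5% at 0.8 and above, so unbound genes are common at such promoters. Below 0.6 the shares of other genes were 0.0968% (below 0.2), 1.50% (0.2 to 0.4) and 15.2% (0.4 to 0.6). The 26 promoters also include that of Tex11, with a ratio of 0.753 but a GC content of 49.05%. The 8 unbound CpG-rich genes and their CpG ratios were Spata2 (0.867), Spata17 (0.849), Tex2 (0.821), Spata13 (0.733), Spata18 (0.695), Tex14 (0.679), Spata6 (0.638) and Spata2L (0.603). Spata2 is an adaptor of the deubiquitinase CYLD, Tex2 a lipid transfer protein of the endoplasmic reticulum and Spata13 a guanine nucleotide exchange factor. Around each of these 8 TSSs at least 99.1% of 50-base words occur once in the assembly. Among all 42 genes only Tex28 and Tex24, both unbound, fell below 90%, at 55.4% and 58.7%. The part of mappability in these 2 unbound calls was not tested.

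The promoter of Tex2 is shown as an unbound contrast, since it carries a TCCCGC core and more CpG dinucleotides (26) than the 4 stretches at bound genes. The stretch, chr11:106474215-106474414 on the minus strand, ends 30 bases past the TSS, with capitals as above.
Tex2: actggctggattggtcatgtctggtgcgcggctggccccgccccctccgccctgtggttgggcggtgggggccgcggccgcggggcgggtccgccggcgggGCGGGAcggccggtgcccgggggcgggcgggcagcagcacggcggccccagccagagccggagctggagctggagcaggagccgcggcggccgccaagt
The nearest WT peak lay 77644 bp from a Tex2 TSS.

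Peak scores at the 15 bound genes spanned a wide range. The median score was 105, with a range from 23 to 859, beside a median of 90 (quartiles 53 and 177) at 5326 other bound genes. The median fold enrichment was 4.44 (range 2.34 to 15.7) beside 3.77. A score at or above 320, the 90th percentile of the WT list, was reached at 6 genes (Spata22, Tex19.1, Tssk6, Tssk3, Tex10 and Spata5), and the next highest score was 110. These 6 were 14.3% of the 42 genes (95% interval 5.43 to 28.5%). Among other protein-coding genes 2.78% had a peak of that strength, and 2.33% when weighted to the CpG ratios of the 42 genes, which corresponds to 0.98 genes. Of the 6, 4 (Spata22, Tex19.1, Tex10 and Spata5) had their own TSS nearest to the peak midpoint. That was 9.52% of the 42 genes (95% interval 2.66 to 22.6%), beside 2.39% of other genes and 2.02% after weighting. No test was made, since the names were chosen with results of these data known.

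**Figure D3:**
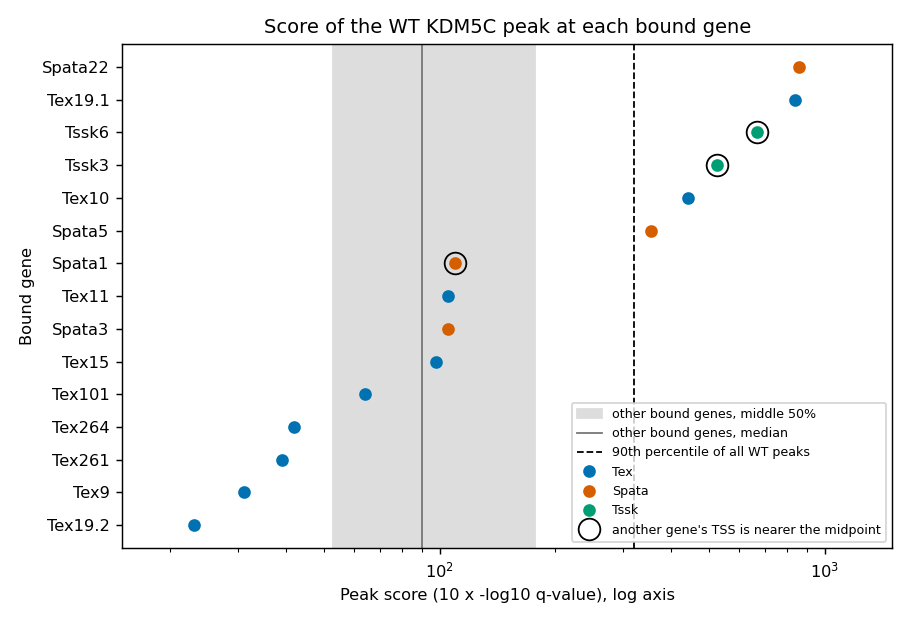
Score of the WT KDM5C peak at each of the 15 bound genes (x axis, 10 times the −log10 q-value, log scale), coloured by name. The grey band and line are the quartiles and median of other bound genes, the dashed line is the 90th percentile of all WT peaks, and rings mark genes for which another gene's TSS is nearer. The 6 highest genes lie at 354 to 859 and the others at or below 110.

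Scores were also compared among promoters of intermediate CpG content. In the 0.4 to 0.6 bin, 3 of the 5 bound genes (Spata22, Tex19.1 and Tssk3) had scores at or above the 90th percentile. Among the other 465 bound genes of that bin 28 did, or 6.02%, and their median score was 77. Of the 3, Tssk3 owed its call to a peak nearer to 1700125D06Rik. The other strong peaks, at Tssk6, Tex10 and Spata5, lay at ratios above 0.6, so such scores were not confined to this bin. Median scores at bound genes of the set and at other bound genes were 105 and 87 from 0.6 to 0.8. At 0.8 and above they were 232 and 98. From 0.2 to 0.4 the 1 bound gene scored 23, beside a median of 59.

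Most of the 15 peaks were centred near the TSS. The summit lay within 250 bp of the closest TSS of the gene at 11 of 15 genes, the exceptions being Spata1, Tex19.2, Tssk3 and Tssk6. A bound call required a midpoint within 1 kb of a TSS, so closeness is partly fixed by that rule. The matching share at other bound genes was not taken. The width ranged from 316 to 1214 bp with a median of 492 bp, beside 548 bp at other bound genes. The 3 widest peaks were those of Tssk3, Tssk6 and Spata1, which were also the 3 peaks with another gene's TSS nearer to the midpoint. In all, 5 of the 15 peaks had a TSS of another gene within 1 kb of the midpoint: those at Spata1 (Gng5), Spata5 (Nudt6), Tssk3 (1700125D06Rik), Tssk6 (Ndufa13) and Tex11 (the pseudogene Gm14901, at 766 bp). The share of other bound genes with such a neighbour was not taken. A peak at a shared promoter cannot be assigned to either gene from these data.

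**Figure D4:**
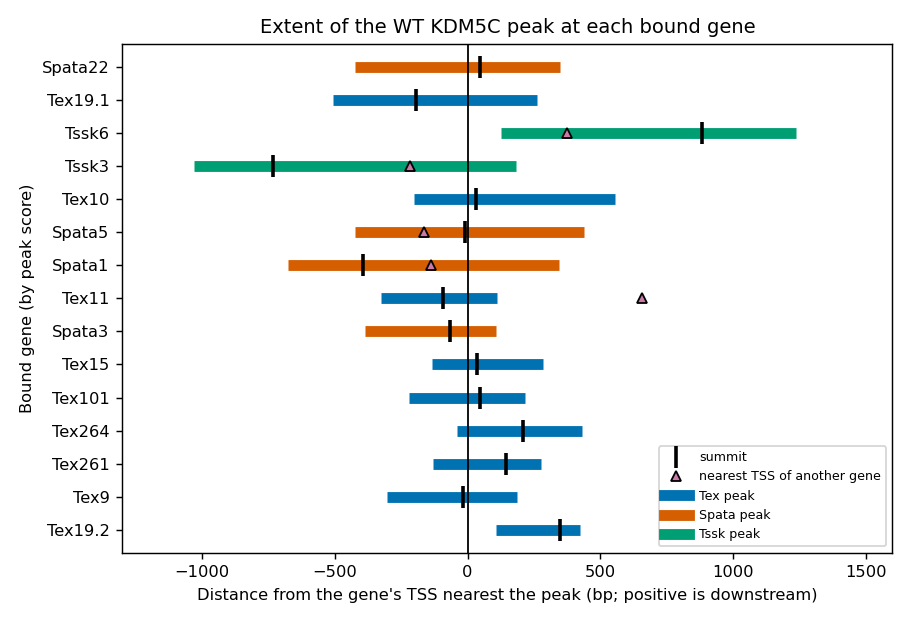
Extent of the WT KDM5C peak at each of the 15 bound genes relative to the gene's closest TSS (x axis, bp, positive downstream), ordered by peak score (y axis). Black ticks are summits and triangles are the closest TSS of another gene. The Tssk6 and Tssk3 summits lie 883 bp downstream and 731 bp upstream, farther from their TSS than those of the other 13 genes.

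Promoter sequence was searched for letters recognised by E2F and by MAX and MGA, whose germ-cell gene repressor complex contains E2F6. In the 300 bases from 250 before to 50 after the TSS of highest CpG ratio, TCCCGC on either strand was present at 8 of 15 bound genes (Spata1, Spata5, Spata22, Tex11, Tex15, Tex19.1, Tex261 and Tex264), or 53.3%. It was present at 7 of 27 unbound genes, or 25.9%. Among other genes it was present at 44.6% of the bound ones and at 27.4% of all. CACGTG was present at 1 bound gene (Tex10) and 2 unbound genes (Spata16 and Spata17), or 6.67% and 7.41%. Among other genes it was present at 13.7% of the bound ones and at 7.81% of all. Within 100 bases on either side of the summit, TCCCGC was present at 4 of the 15 genes (Spata5, Spata22, Tssk3 and Tssk6), or 26.7%, beside 30.8% of all other WT peaks. CACGTG was present there at Tex264 and Tssk3, beside 15.9% of other peaks. Spata22 had 3 TCCCGC matches in this window, which 0.942% of other WT peaks reached. TCCCGC contains a CpG, so its frequency moves with CpG content, and a match is not evidence of binding.

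The KO list served as the control for the antibody. None of the 15 WT peaks overlapped 1 of the 44 KO peaks on chromosomes, and no KO peak midpoint lay within 1 kb of any of the 42 genes. The closest, to Spata21, was 264503 bp away. Among other bound genes 17 of 5326, or 0.319%, had a WT peak that overlapped a KO peak. As the KO list held few peaks and, by the reporting summary, came from a single immunoprecipitate, the absence of a call does not show that signal was absent.

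Sperm and spermatid genes with other names were examined beside these genes. Of 20 such genes, among them the protamines Prm1 and Prm2, the transition proteins Tnp1 and Tnp2 and the sperm calcium channel genes Catsper1 to Catsper4, 2 were bound, or 10% (95% interval 1.23 to 31.7%), where their CpG ratios corresponded to 1.35 genes. The bound ones were Spaca1 (score 225) and Zpbp (score 399), both genes of the acrosome. The difference from the 42 genes was not tested.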

How the data were processed

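KDM5C ChIP-Seq peak lists were examined for WT and KO EpiLCs, 4 samples in all (immunoprecipitate and input of each genotype), grouped by title. Per the study's methods and processing notes, the authors mapped reads to mm9 with Bowtie (1.1.2 in the notes), kept unique reads and called peaks with MACS2 2.1.0.20140616 against input. For each peak the authors deposited a score (10 times the −log10 q-value, decimals dropped), the fold enrichment (ratio of immunoprecipitate to input), the −log10 of the p-value and of the q-value and a summit offset; the p-value was not used. Unique mapping can lose peaks in repeated sequence. The lists hold 6933 WT and 47 KO peaks, of which 6916 and 44 on assembled chromosomes were used. The reporting summary states a minimum depth for all samples; the lists give no read counts, so the depth of each sample was not used here.

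Genes, TSSs and sequence were those of GENCODE M1 and NCBIM37 (mm9). Records of 1 symbol on 1 chromosome were merged. Bound shares of other genes were weighted to the members over 5 bins of CpG ratio. Intervals are exact Clopper-Pearson 95% intervals over genes and take genes as independent, although some are related, such as the Tssk genes. No test was made, since each genotype has 1 list and the members and lists were chosen with earlier results of these data known. Every member was named as bound or unbound, and values were given for each bound gene with a score at or above the WT median and for all Tssk genes. Peak positions were added for these. Sequences were taken for the 4 bound genes of highest score and the 3 unbound genes of highest CpG ratio, Spata2 and Spata17 excepted because UTRs cover theirs. Mappability was the share of 50-base words within 500 bp of the TSS that occur once, by exact match. The code for bound calls and CpG ratios was run on simulated data with known answers, which checks the coding only and not the calls themselves. Python 3.11.15, NumPy 2.4.6, pandas 2.3.3, SciPy 1.17.1 and pysam 0.24.0 were used.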

Additional observations from a re-analysis of the deposited data

How the results depend on the processing

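Choices were changed for 5 results, 1 at a time except where a pair is named: the number of Tex, Spata and Tssk genes bound, the difference in bound share from other genes of like CpG ratio, the median score, the overlap with KO peaks and the number with their own TSS nearest. Of 37 alternative values, 35 stayed within the limits set for an unchanged value (a count or median within 1.5 times, a difference within its counting interval), and 0 reversed. The limits for the difference, -0.368 to 30.1 points, include 0, so a difference of 0 would also have counted as unchanged. Taking any symbol that starts with these names changed no value. The count of 35 is therefore a weak measure of stability. The number bound fell from 15 to 6 when peaks had to reach the 90th percentile of WT scores, and to 4 when such a peak was also counted only for the gene of nearest TSS, an alternative chosen after seeing the data like 5 others of the 37. The first follows from the smaller number of peaks counted, and the step from 6 to 4 is the loss of Tssk3 and Tssk6, whose peaks lie nearer to another gene's TSS. The number bound was 14 within 500 bp, 16 within 5 kb, 14 by gene starts alone and 12 when a peak counted only for the gene of nearest TSS. Over 17 alternatives the difference in bound share ran from 7.5 percentage points, under that pair of choices, to 15.4. No paired analysis was possible because the WT and KO lists are 1 each, and for the same reason no replicate could be left out. Calls rest on 1 WT list with no read counts, so an unbound gene is one with no called peak, not one shown to lack KDM5C.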
